A study of Mus musculus with 4 samples.

Results

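A set of 13930 mouse promoter-array probes was described whose MeDIP signal was well above background on the KO decitabine array and on none of the other 3 arrays. MeDIP (methylated DNA immunoprecipitation) uses an antibody against methylated cytosine to enrich methylated DNA fragments, which were hybridised here in Cy3 beside the starting DNA, called input, in Cy5. The probes were chosen on the measured detection flags of the scanner files: the MeDIP flag had to be set on the KO decitabine array alone, and the input flag on all 4 arrays. They are 13930 of 520554 probes that are not controls, and 4.19% of the 332780 probes with input well above background on every array, called eligible probes below. Their brightness on the KO decitabine array, and their dimness on the others, is therefore the rule and not a finding.

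There were 4 groups of cultured mouse leukaemic cells with 1 array each: KO cells with decitabine, WT cells with decitabine, KO cells without treatment and WT cells without treatment. Decitabine was given at 20 nM every 24 h for 3 days, and all cultures were harvested at 72 h. All groups were cultured alike, with serum, interleukin-6, interleukin-3 and stem cell factor. The labels disagree on the deleted gene: the sample sources name Mll5, a SET and PHD domain protein, whereas the genotype field reads HOXA9 KO. They do not say how the leukaemia was made or whether a group is 1 clone. No probe is named for Mll5, so the deletion was not checked, and DNA signals do not show the cell type. With 1 array per group there was no replicate error and no test, and because every group had a slide of its own, effects of slide and of group cannot be told apart. Comparisons below describe these 4 arrays.

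In mammals DNA methylation lies mostly on the cytosine of CpG dinucleotides and is copied at each replication by DNMT1, while DNMT3A and DNMT3B place new marks. Decitabine is a cytidine analogue that is built into DNA and traps these enzymes, so that methylation is lost as cells divide. Probes report on fragments longer than themselves, so a probe without a CpG can be enriched through CpGs beside it.

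A choice of 10 members shows the range of sequences in the set. Positions refer to the mouse build mm9, which the headers name, and every sequence is of the plus strand. The first 5 are among the 10 members with the largest fold over the other arrays and are rich in CpG. They lie in the genes Hnrph3 (chr10:62485962-62486006, intron), Rras (chr7:52273447-52273491, coding exon), Sox17 (chr1:4483711-4483755, intron), Igsf21 (chr4:139802151-139802195, intron) and Vezf1 (chr11:87882204-87882248, intron). The next 3 come from long runs of neighbouring members, at Cd2 (chr3:101091460-101091516, coding exon), Chrm2 (chr6:36474155-36474208, coding exon) and Rapgef4 (chr2:71817491-71817550, outside annotated genes). The last 2 come from genes with many members, 9030025P20Rik (chr17:15116490-15116545, coding exon) and Cdkn1a (chr17:29230962-29231006, intron). Capitals mark each CpG.
Hnrph3: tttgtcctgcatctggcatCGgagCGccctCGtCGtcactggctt
Rras: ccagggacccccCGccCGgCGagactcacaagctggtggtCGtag
Sox17: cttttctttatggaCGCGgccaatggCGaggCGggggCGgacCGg
Igsf21: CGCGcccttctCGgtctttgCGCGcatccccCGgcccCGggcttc
Vezf1: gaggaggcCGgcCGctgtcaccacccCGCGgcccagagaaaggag
Cd2: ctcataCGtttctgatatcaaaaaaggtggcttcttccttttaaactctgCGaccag
Chrm2: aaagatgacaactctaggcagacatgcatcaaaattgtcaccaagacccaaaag
Rapgef4: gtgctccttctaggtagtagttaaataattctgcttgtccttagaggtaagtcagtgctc
9030025P20Rik: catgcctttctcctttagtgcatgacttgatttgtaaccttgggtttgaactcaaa
Cdkn1a: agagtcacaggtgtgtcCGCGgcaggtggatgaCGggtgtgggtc

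Most members passed the threshold of the KO decitabine array by a small margin. Per array, the flag followed a fixed limit on the background-subtracted MeDIP signal, in scanner units, and that limit differed between arrays. The lowest bright signal was 96.3 on KO decitabine, 115 on WT decitabine, 195 on KO untreated and 108 on WT untreated. The median member had a subtracted signal of 115 on KO decitabine, 84.1 on WT decitabine, 68.1 on KO untreated and 32.3 on WT untreated. Divided by each array's own limit, these medians were 1.19, 0.73, 0.35 and 0.30 on those arrays. On KO decitabine, 2540 members reached 1.5 times the limit and 593 (4.26%) reached 2 times the limit. On WT decitabine, 37.8% of members reached at least 0.8 of the limit, against 2.76% on KO untreated and 5.06% on WT untreated. Over all eligible probes, those bright on the array included, these shares were 19.07%, 6.06% and 6.15%. By these shares, WT decitabine was thus above both untreated arrays over all eligible probes too, not at members alone. They depend on the limits, and that of KO untreated was the highest. By median subtracted signal, eligible probes of 30 to 40% G+C had 29.2 on WT decitabine and 29.4 on KO untreated. Those of 40 to 50% G+C had 38.8 and 31.8 on these 2 arrays. A set of 213 members was clear of the limits on all arrays, with at least 2 times the limit on KO decitabine and under 0.5 of it on the other 3.

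**Figure D1:**
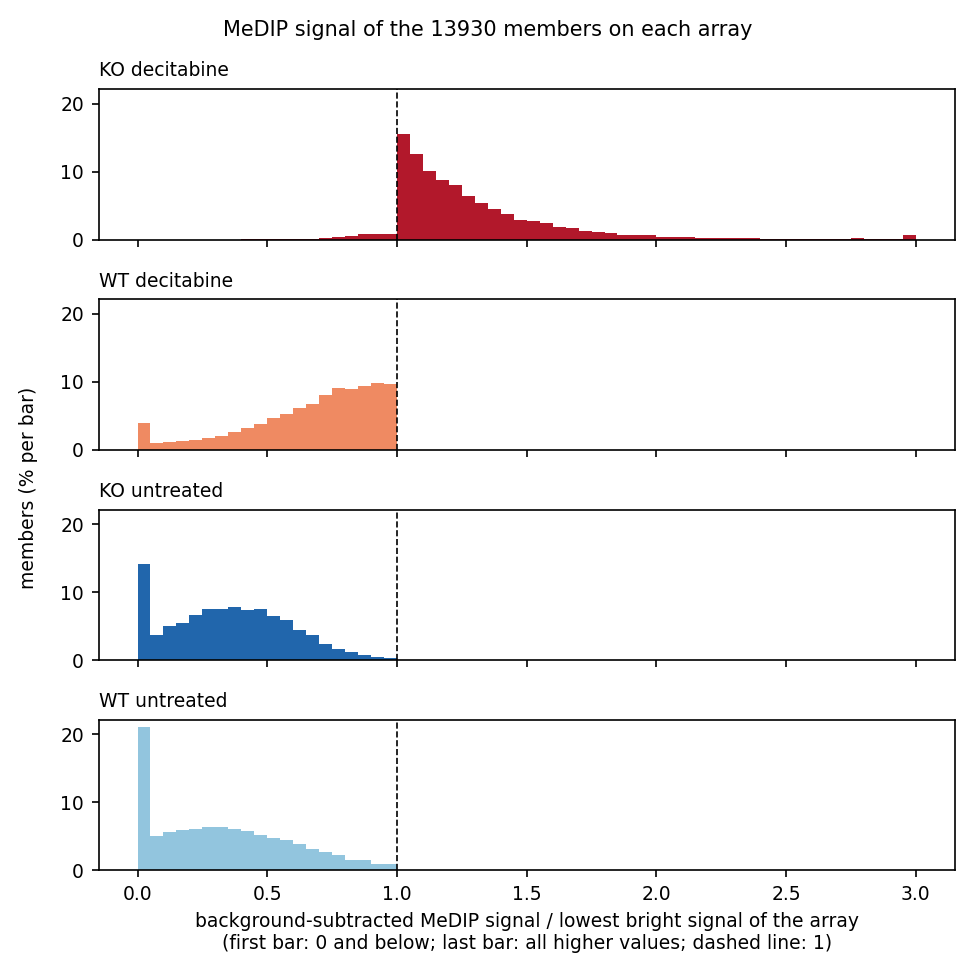
Histograms of the background-subtracted MeDIP signal of the 13930 members on each array, divided by the lowest bright signal of that array (x axis), as the percent of members per bar (y axis). The KO decitabine values crowd just right of the dashed line at 1 (median 1.19), the WT decitabine values just left of it (median 0.73), and the untreated arrays lie lower; the few KO decitabine values left of the line belong to probes with 2 spots of which 1 was bright.

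The limit itself set part of the membership. A total of 4343 members (31.2%) had a subtracted signal on WT decitabine that would have passed the KO decitabine limit. Conversely, 11268 members were highest on KO decitabine by subtracted signal, 1851 were higher on KO untreated than on KO decitabine, and 1077 were higher on WT decitabine. Probes bright only on WT decitabine, chosen the same way, numbered 7643 (2.30% of eligible probes), so the KO decitabine set was 1.82 times as large. When the brightest 10% of eligible probes by subtracted signal were taken on each array, an alternative added after the data were seen, 3636 probes were bright only on KO decitabine and 3947 only on WT decitabine. The larger number on KO decitabine was thus not seen when all arrays had the same share of bright probes. Of the members, 15.1% were also in that alternative set, and they made up 57.8% of it. Another alternative added after the data were seen set 1 threshold on the dye-normalized MeDIP signal for all arrays. It gave 6793 probes bright only on KO decitabine and 4778 only on WT decitabine, so the larger number on KO decitabine was seen there.

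Repeat spots and place on the slide moved with membership. Among the 1176 members printed as 2 spots, both spots were bright on KO decitabine in 362 (30.8%, 95% Wilson interval 28.2% to 33.5%, counting error only). The same share was 32.9% for probes bright only on WT decitabine, 75.9% for probes bright on both decitabine arrays only, and 99.9% for probes bright on all 4 arrays, the last 2 read on KO decitabine. In a grid of 8 by 8 blocks over the array, members made up between 1.09% and 13.2% of the eligible probes of a block, with a median of 3.73% and no block holding fewer than 4313 eligible probes. The 8 blocks with the highest share held 25.7% of the members but 12.6% of the eligible probes. Probes bright only on WT decitabine made up 0.35% to 5.61% of a block, and these shares ran in opposite directions over the 64 blocks (Spearman's rho -0.84, Pearson's r -0.70). The share of members followed the difference in block median MeDIP signal between KO decitabine and WT decitabine (rho 0.92, r 0.86). These blocks share the same 4 arrays, so the correlations are descriptions. The part of slide position in membership was not tested, but its size can be given: with each array's own share of bright probes taken within every block, 13141 probes were bright only on KO decitabine and 6971 only on WT decitabine, and 10017 of the members (71.9%) were among the KO decitabine ones, of which they made up 76.2%.

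**Figure D2:**
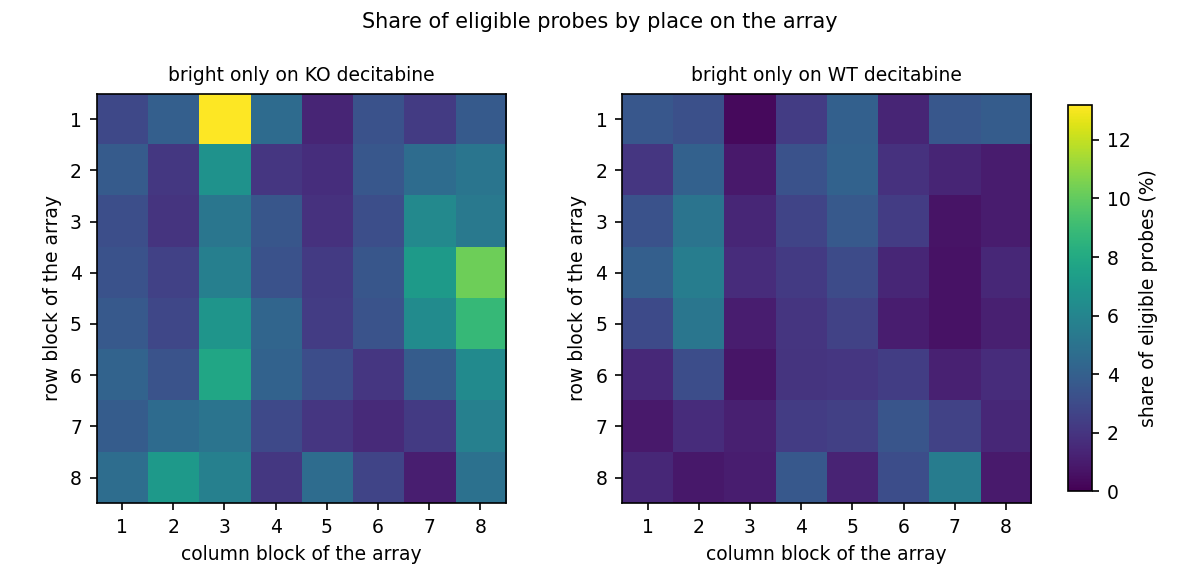
Maps of the array in 8 by 8 blocks (row blocks down, column blocks across); colour gives the percent of a block's eligible probes bright only on KO decitabine (left) and only on WT decitabine (right). The block richest in members (13.2%, row block 1 and column block 3) is poor in probes bright only on WT decitabine.

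Members held slightly more CpGs than eligible probes did. The mean was 1.11 ± 1.47 CpGs per probe in members (SD over 13930 probes), against 0.894 in all eligible probes. For probes bright only on WT decitabine the mean was 0.828, and for those bright on both decitabine arrays only it was 1.17. At least 1 CpG was present in 55.1% of members, against 48.7% of eligible probes, and at least 3 CpGs in 14.3% of members, against 8.66% of probes bright only on WT decitabine. The share of eligible probes that were members was larger at higher CpG counts, being 3.67% at 0 CpGs, 4.48% at 1, 4.44% at 2, 4.84% at 3, 5.58% at 4, 7.46% at 5 and 8.69% at 6 or more. The share bright only on WT decitabine was about level at 0 to 3 CpGs, with 2.29%, 2.40%, 2.44% and 2.30%, and lower above, with 1.81% at 4, 1.12% at 5 and 1.05% at 6 or more.

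The relation to CpG count varied with base composition. Among eligible probes of 45 to 55% G+C, the member share was 3.45%, 3.74%, 3.39%, 3.30% and 1.94% at 0, 1, 2, 3 and 4 or more CpGs, with no rise. At those CpG counts the share bright only on WT decitabine fell, with 3.81%, 3.16%, 2.62%, 2.19% and 1.15%. Between 30 and 40% G+C the member share was 3.58% at 0 CpGs, 5.01% at 1 to 2 and 5.14% at 3 to 4. Between 40 and 50% it was 3.93%, 4.76% and 4.15% in the same CpG classes. Between 60 and 70% G+C it was 3.21% at 0 CpGs, 4.16% at 1 to 2, 5.90% at 3 to 4 and 6.82% at 5 or more. By G+C content alone, the member share was 3.11% at 50 to 60%, 5.27% at 60 to 70%, 9.45% at 70 to 80% and 15.8% at 80 to 90%. In the same 4 classes, 3.46%, 2.57%, 1.19% and 0.26% of eligible probes were bright only on WT decitabine. The class of 80 to 90% was small: 385 eligible probes, with 61 members and 1 probe bright only on WT decitabine. The input of the KO decitabine array also moved with G+C content: over all eligible probes, the median log2 input of KO decitabine minus WT decitabine was 0.29 at 30 to 40% G+C, -0.03 at 40 to 50%, -0.59 at 60 to 70% and -0.88 at 80 to 90%. The background-subtracted MeDIP signal, which does not use the input, had a median of 66.9 on KO decitabine and 35.9 on WT decitabine at 80 to 90% G+C, against 33.2 and 38.8 at 40 to 50%. What part the difference in base composition between these arrays has in the CpG-rich members was not tested.

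**Figure D3:**
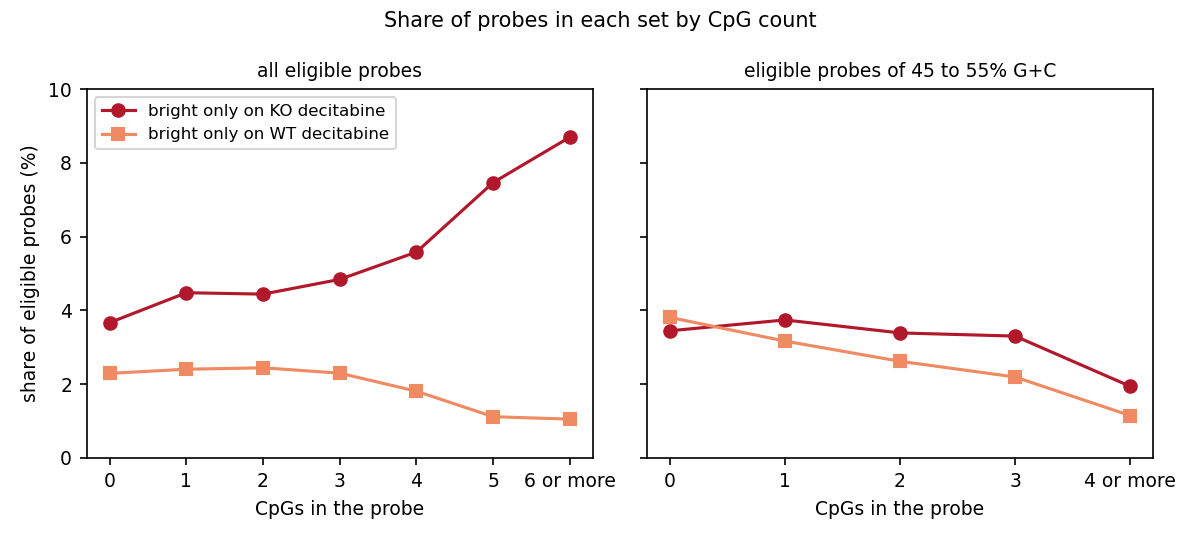
Percent of eligible probes bright only on KO decitabine (dark circles) and only on WT decitabine (light squares) by the number of CpGs in the probe, over all eligible probes (left) and over those of 45 to 55% G+C (right). The KO decitabine share rises to 8.69% on the left and does not rise on the right, where it ends at 1.94%. The WT decitabine share falls on the right, from 3.81% to 1.15%.

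Input signal was high at members on all 4 arrays. On the log2 scale, the median member lay above the median probe of its array by 0.71 on KO decitabine, 0.65 on WT decitabine, 0.64 on KO untreated and 0.63 on WT untreated. Other bright sets lay higher still on KO decitabine. The median there was 1.03 for probes bright only on WT decitabine, 1.60 for both decitabine arrays only and 3.09 for all 4 arrays. With eligible probes split into 4 equal classes by KO decitabine input, members were 1.23%, 2.55%, 4.76% and 8.21% of a class from the lowest to the highest. At the members the median input difference was -0.01 for KO decitabine minus WT decitabine and -0.01 for KO decitabine minus KO untreated. These medians cover opposite shifts by base composition. Among members of 30 to 40% G+C the median log2 input was 0.30 on KO decitabine and -0.09 on WT decitabine, whereas at 60 to 70% G+C it was 1.22 on KO decitabine and 1.97 on WT decitabine. Membership therefore went with probes that hybridised brightly in general, as it did for probes bright only on WT decitabine (0.32% of the lowest class and 5.82% of the highest).

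Members were spread over the genome. The median G+C content was 43.1% in members and in eligible probes alike. Of the 13880 members placed on the main chromosomes, all matched the mm9 sequence at their position, 43.6% lay in introns, 37.0% outside annotated genes, 8.52% in untranslated regions, 8.21% in coding exons and 2.71% in other exons. The share of eligible probes that were members ran between 3.85% in other exons and 4.42% in untranslated regions. Within 1000 bp of an annotated gene start lay 36.6% of members (95% Wilson interval 35.8% to 37.4%, counting error only), against 38.9% of eligible probes. Probes near each other share fragments, so the interval is not a test of this difference. Windows of 500 bp around the probe that were CpG-dense, by a ratio of observed to expected CpGs of at least 0.75 and at least 55% G+C, held 12.3% of members and 9.82% of eligible probes. Probes bright on both decitabine arrays only were in such windows more often (15.9%) and those bright only on WT decitabine less often (8.70%).

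Most members stood alone. With members linked over gaps of at most 1000 bp, 72.6% had no other member in reach, 1433 runs held 2 members, 227 held 3 and 60 held 4 or more, and the longest had 7. Another member lay within 1000 bp of 27.4% of members, against 19.3% for the smaller set bright only on WT decitabine and 38.7% for the larger set bright on both decitabine arrays only. Of 1720 runs with at least 2 members, 1701 (98.9%) had members in more than 1 block of the array, so adjacent members in the genome were seldom adjacent on the slide. The 31326 eligible probes within 500 bp of a member, members themselves left out, were bright in 19.6% on KO decitabine, 21.4% on WT decitabine, 6.60% on KO untreated and 6.27% on WT untreated. Around all eligible probes, where members were not left out, these shares were 16.4%, 14.4%, 4.11% and 4.10%. Neighbours of members were thus brighter than usual on every array, and slightly more often bright on WT decitabine than on KO decitabine, since leaving out members removes probes bright on KO decitabine alone. No array was bright at 77.9% of these neighbours, and 11.2% were bright on both decitabine arrays only.

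The run with the most members lay just downstream of the start of Cd2, which encodes an adhesion receptor of T and natural killer cells. Of 10 eligible probes between 139 and 1652 bp from the start (chr3:101090121-101091688), 7 were members, 5 of them intronic. Their median subtracted signal was 121 on KO decitabine, 76.4 on WT decitabine, 85.6 on KO untreated and 61.1 on WT untreated. The 3 other eligible probes reached 0.37, 0.97 and 0.48 of the limit on KO decitabine. At the member 704 bp from the start, WT untreated reached 0.98 of its own limit, so that the arrays were close to overlapping there. The 7 members lay in 7 blocks of the slide, and 6 remained members when bright probes were taken within blocks. The Cd2 coding-exon member printed above had 132 on KO decitabine, 67.8 on WT decitabine, 42.6 on KO untreated and 61.4 on WT untreated.

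**Figure D4:**
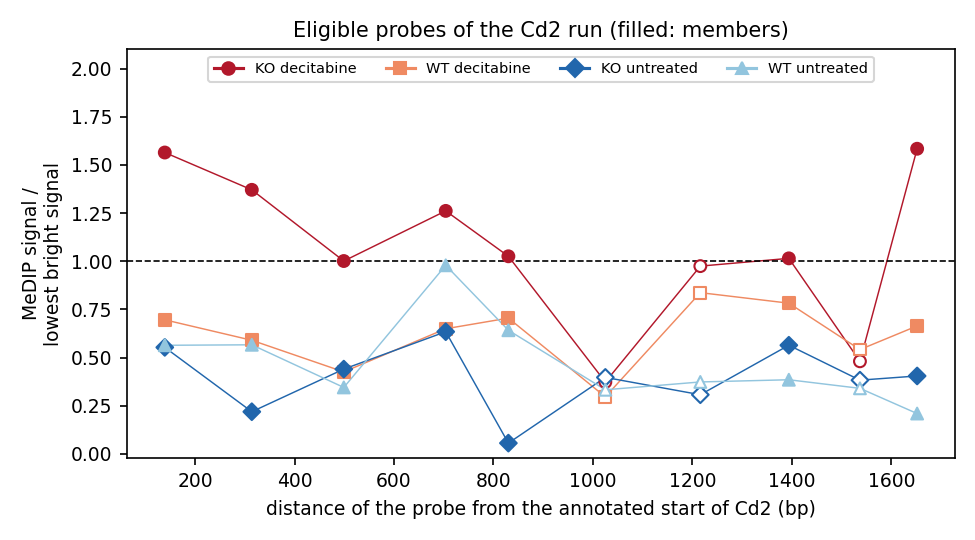
MeDIP signal over the lowest bright signal of the array (y axis) at the 10 eligible probes of the Cd2 run, by distance from the annotated start in bp (x axis); filled symbols are members, open symbols are not, and the dashed line is the limit. KO decitabine lies above 1 at the 7 members and between 0.37 and 0.97 at the 3 others, while no other array crosses 1.

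Runs of 5 members among 5 eligible probes lay at 3 further genes. In the coding exon of Chrm2, the M2 muscarinic acetylcholine receptor (chr6:36473552-36474312), the median subtracted signal was 147 on KO decitabine, 90.7 on WT decitabine, 89.4 on KO untreated and 60.5 on WT untreated. The Chrm2 member printed above, which has no CpG, had 163, 109, 34.9 and 33.8 on those arrays. Upstream of Rapgef4, an exchange factor for Rap GTPases that is activated by cyclic AMP (chr2:71817491-71818385), the run medians were 151 on KO decitabine, 84.8 on WT decitabine, 102 on KO untreated and 61.4 on WT untreated. Of its 5 probes, 4 carried no CpG and the run held 2 CpGs in all. In the introns, a coding exon and an untranslated region of Gsto1, a glutathione S-transferase of the omega class (chr19:47938335-47939021), the medians were 107 on KO decitabine and 103 on WT decitabine, against 104 on KO untreated and 59.5 on WT untreated. At Gsto1, 3 of the 4 medians thus lay close together before the limits were applied. By processed signal, which includes dye normalization, 1 of its 5 members reached 1.5 times the lowest bright value on KO decitabine, whereas 3 did at Chrm2 and 3 at Rapgef4. Within-block brightness kept 4 members at Chrm2, 5 at Rapgef4 and 3 at Gsto1. The remaining run of the 5 longest lay at the protocadherin gene Pcdhb17, with 6 members of 10 eligible probes and medians of 111 on KO decitabine, 47.2 on WT decitabine, 109 on KO untreated and 47.7 on WT untreated. There the 2 KO arrays were alike and the 2 WT arrays lower, and 1 of the 6 members reached 1.5 times the lowest bright processed signal.

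By gene, 8778 of 19703 genes with an eligible probe held at least 1 member (44.6%), so that holding a member marked little. A single member was found in 5360 genes, 2 in 2264, 3 in 782 and 4 or more in 372. Genes with a member had more eligible probes (median 20) than genes without (median 13). The 20 genes with the most members held 137 members among 615 eligible probes, 71 in introns, 45 outside annotated genes and 52 within 1000 bp of a gene start. These genes were picked for their members, so the values that follow describe the choice. Relative to each array's limit, the gene medians lay between 1.05 and 1.59 on KO decitabine, 0.41 and 0.90 on WT decitabine, 0.22 and 0.56 on KO untreated, and 0.11 and 0.56 on WT untreated. Relative to the limits, WT decitabine was the second highest of the 4 arrays in 19 of the 20, all but Pcdhb17. That order depends on the limits, of which that of KO untreated was the highest. By median subtracted signal, KO untreated lay above WT decitabine at 9030025P20Rik, 1110012L19Rik, Cd2, Pcdhb17, Smpdl3b, Gpr19 and Tbcel. It lay below WT decitabine at the others of the 20. Within-block brightness kept 105 of the 137 members.

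**Figure D5:**
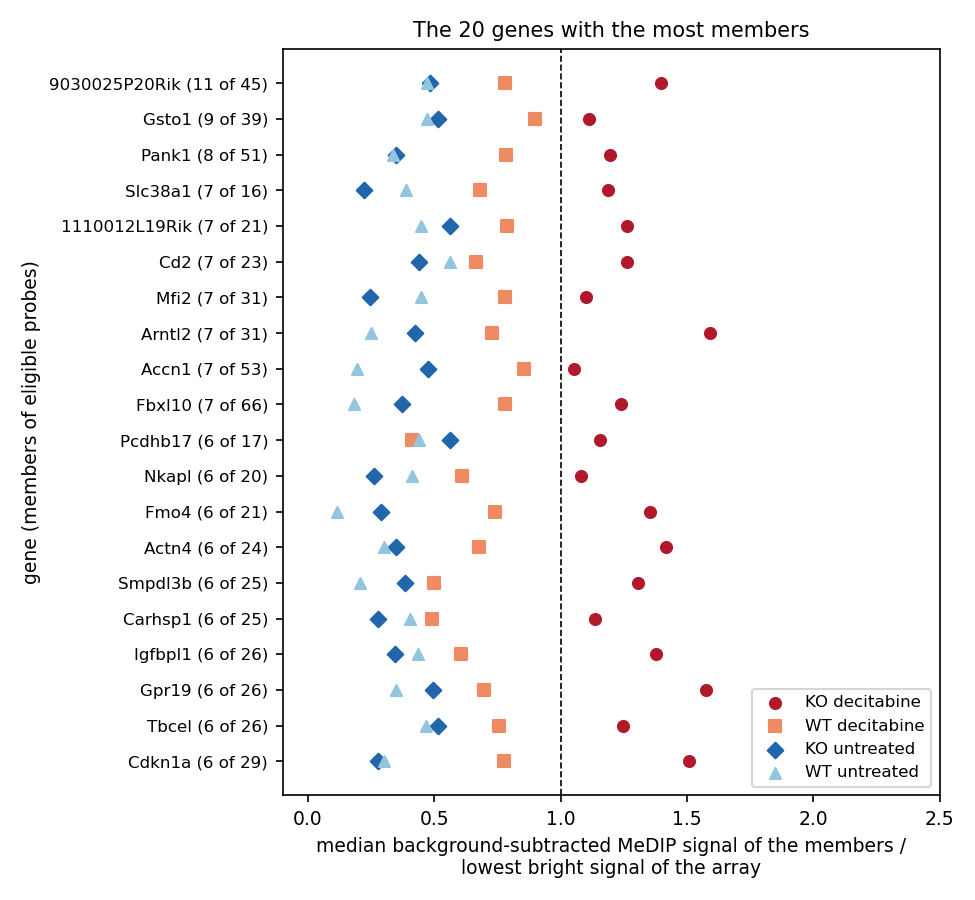
Median background-subtracted MeDIP signal of the members of each of the 20 genes with the most members, divided by the lowest bright signal of the array (x axis; dashed line at 1), with the number of members of eligible probes after each gene name. KO decitabine (circles) lies right of the line by the choice of the probes, WT decitabine (squares) comes next in 19 genes, and the untreated arrays (diamonds and triangles) lie lowest. This order depends on the limits: that of KO untreated was the highest (195), which places its values further left.

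Among regulators of growth and chromatin, Cdkn1a, the cell cycle inhibitor p21, had 6 members of 29 eligible probes (chr17:29227557-29232606), 5 intronic by the annotation and 1 outside it. Their median subtracted signal was 145 on KO decitabine, 89.2 on WT decitabine, 53.7 on KO untreated and 32.7 on WT untreated. At the Cdkn1a probe printed above, with 3 CpGs and 267 bp from a start, the signals were 165 on KO decitabine and 99.8 on WT decitabine, against -40.6 on KO untreated and 7.03 on WT untreated. Both treated arrays were higher than both untreated ones at this probe. Fbxl10, an older name of Kdm2b, whose protein binds unmethylated CpG islands and demethylates histones, had 7 members of 66 eligible probes, with medians of 119 on KO decitabine, 89.7 on WT decitabine, 72.6 on KO untreated and 19.9 on WT untreated. Arntl2, a circadian clock transcription factor, had 7 members of 31, with medians of 153, 83.9, 82.3 and 27.2 on KO decitabine, WT decitabine, KO untreated and WT untreated.

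Among genes of metabolism and transport, Gsto1 had 9 members of 39 eligible probes. Slc38a1, a glutamine transporter, had 7 of 16, the highest share of the 20 genes at 43.8%, all intronic and 12814 to 19099 bp from the gene start. Its medians were 114 on KO decitabine, 78.5 on WT decitabine, 43.3 on KO untreated and 41.9 on WT untreated. Pank1, a pantothenate kinase of coenzyme A synthesis, had 8 members of 51, Smpdl3b, a sphingomyelinase-like phosphodiesterase, 6 of 25, and Fmo4, a flavin monooxygenase, 6 of 21. Mfi2, the iron-binding melanotransferrin, had 7 of 31, of which 6 lay outside annotated genes. The Mfi2 medians were close on the treated arrays, with 106 on KO decitabine and 89.7 on WT decitabine, against 47.8 on KO untreated and 48.4 on WT untreated.

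The other named genes encode receptors, cytoskeletal proteins and proteins of less certain role. 9030025P20Rik had the most members of any gene, 11 of 45 eligible probes (chr17:15116159-15124778), of which 10 were intronic and the 11 held 3 CpGs in all. Its input stood out: the median log2 input of these members was 2.32 on KO decitabine, 1.75 on WT decitabine, 2.21 on KO untreated and 1.74 on WT untreated, higher on both KO arrays. With that input in the ratio, its median centred log2 ratio was -0.03 on KO decitabine, -0.56 on WT decitabine, -0.91 on KO untreated and -0.67 on WT untreated. Accn1, a subunit of acid-sensing ion channels, had 7 members of 53 with medians of 101 on KO decitabine and 98.3 on WT decitabine, and 1 of the 7 reached 1.5 times the lowest bright processed signal. Gpr19, an orphan G protein-coupled receptor, had 6 of 26, and Actn4, the actin cross-linker alpha-actinin 4, had 6 of 24. 1110012L19Rik had 7 of 21, Nkapl 6 of 20, Carhsp1 6 of 25, Igfbpl1 6 of 26 and Tbcel, related to a tubulin folding cofactor, 6 of 26.

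Folds over the other arrays were bounds, since members were not well above background there. For each member the centred MeDIP over input ratio on KO decitabine was set against the highest ratio that the background limits of the other 3 arrays allow. This bound reached 1 in 5462 members (39.2%) and at least 2-fold in 437 (3.14%), so for most members the arrays could not be ordered by it. The 437 were G+C rich, with a median of 64.4% against 43.1% in all members, and carried 3.12 CpGs on average. In 419 of the 437 (95.9%) the centred input was lower on KO decitabine than on each other array, against 33.4% of all members and 32.5% of eligible probes. A low input raises the ratio by its construction, and the part it has in these folds was not tested beyond this count. Within-block brightness kept 353 of the 437.

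The largest bound was at Hnrph3, an RNA-binding protein of the hnRNP family (Hnrnph3 in the annotation), where KO decitabine was at least 30.7-fold higher. The subtracted MeDIP signal was 5325 on KO decitabine, 69.4 on WT decitabine, 53.0 on KO untreated and 10.7 on WT untreated. The processed input signal was 2395 on KO decitabine, 1724 on WT decitabine, 1344 on KO untreated and 2066 on WT untreated, so here the input was highest on KO decitabine. No other eligible probe lay within 500 bp, and the probe was printed once, so nothing else on the array repeats this value. It is also 1 of the 10 members that carried the scanner's non-uniformity flag on an array, the only such one among the 10 largest bounds. At Sox17, a transcription factor of endoderm and fetal blood stem cells, the bound was at least 8.31-fold, with MeDIP signals of 335 on KO decitabine, 20.5 on WT decitabine, 44.9 on KO untreated and -17.6 on WT untreated. Its input was 483 on KO decitabine, against 1868 on WT decitabine, 1176 on KO untreated and 1510 on WT untreated, and neither of its 2 neighbours was bright on any array. Rras, a Ras-related GTPase, was at least 11.4-fold higher on KO decitabine, with MeDIP signals of 510, 87.8, 172 and 13.2 on KO decitabine, WT decitabine, KO untreated and WT untreated. Its input was likewise lowest on KO decitabine, and none of its 3 neighbours was bright.

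The others of the 10 largest bounds were at Nfatc1 (at least 11.6-fold), Igsf21 (7.16), Ptpn23 (6.47), Bcar1 (6.30), Vezf1 (5.98), Zcchc12 (5.87) and Nxph4 (5.61). All 10 were printed as 1 spot, held 4.90 CpGs on average, and 6 lay in CpG-dense windows. In 9 of the 10, all but Hnrph3, the input was lowest on KO decitabine. Taking the MeDIP channel without the input, Igsf21 had 281 on KO decitabine, 29.3 on WT decitabine, -18.4 on KO untreated and -25.5 on WT untreated. Vezf1, a zinc finger transcription factor of blood vessels, had 269, 42.9, 7.87 and -35.7 on those arrays. The rule itself chose these probes for a high MeDIP signal on KO decitabine, so this order adds nothing to it. The limit was sharp: the members just inside it, at Lemd1 and Manbal, and the probes just outside it, at Slc41a3, Klf16 and Ninj2, all had a subtracted signal of 96.3 on KO decitabine. A further member at the limit, at Eif4enif1, was printed as 2 spots with a mean of 65.0.

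Centred log2 ratios, which also use the dim signals, were compared between arrays at members, although the rule used the same MeDIP channel. At least 2-fold higher were 60.6% of members on KO decitabine over KO untreated (17.3% of all eligible probes) and 38.1% on KO decitabine over WT decitabine (9.65%). Neither count is independent of the rule. For the comparisons that leave out the KO decitabine array, 34.2% of members were at least 2-fold higher on WT decitabine than on WT untreated (17.6% of eligible probes), with a median log2 difference of 0.57. On KO untreated over WT untreated it was 16.9% (8.79%), with a median of 0.20. The set was dim by rule on these 3 arrays, and 7.85% of members on WT decitabine, 29.8% on KO untreated and 38.3% on WT untreated carried surrogate values in place of signals too close to background. The ratio was higher on WT decitabine than on WT untreated in 72.2% of members, but this direction depended on the normalization: the median difference was 0.10 when arrays were centred on bright probes and -0.08 after loess.

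Gene lists of known function held members near the rate of all genes. The share of eligible probes that were members was 4.18% over all genes and 3.85% over the 360 listed genes that were found, of which 185 (51.4%) held a member. It was highest for H3K4 methylation genes (18 of 266 probes, 6.77%), germline genes silenced by promoter methylation (25 of 402, 6.22%) and promoters often methylated in leukaemia (45 of 771, 5.84%). It was lowest for polycomb-bound developmental regulators (40 of 1403, 2.85%), housekeeping genes with CpG islands (15 of 509, 2.95%), decitabine handling genes (11 of 371, 2.96%) and myeloid genes (14 of 468, 2.99%). HOXA genes and cofactors were at 4.18% (20 of 479), interferon response genes at 4.34%, DNA methylation and demethylation enzymes at 4.61% and stem and progenitor regulators at 3.87%. Lymphoid genes were at 3.19%, markers of tissues outside the blood at 3.21%, imprinted genes at 3.28% and clustered protocadherins at 3.30%. These are shares of few probes, described without a test.

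Within the lists, 80 of the 360 genes found had at least 2 members, against 3418 of all 19703 genes. The listed genes had a median of 21 eligible probes, against 17 over all genes. Cdkn1a, above, had the most members of the listed genes. Hoxa10, a homeobox gene of blood progenitors, had 5 members of 38 eligible probes, with medians of 131 on KO decitabine, 101 on WT decitabine, 15.2 on KO untreated and 39.4 on WT untreated. Both treated arrays were higher than both untreated ones in these medians of subtracted signal, but not by centred log2 ratio. The Hoxa10 medians of that ratio were 1.21 on KO decitabine, 0.13 on WT decitabine, -0.06 on KO untreated and 0.31 on WT untreated. In WT cells, 2 of the 5 members had a higher ratio with decitabine. Setd1a, a histone H3 lysine 4 methyltransferase, had 5 of 51, with subtracted signal medians of 108 on KO decitabine, 92.6 on WT decitabine, 80.5 on KO untreated and 29.6 on WT untreated. Myb, a transcription factor of blood progenitors, had 5 of 26 and Pax5, a B cell transcription factor, 5 of 47. Hic1, a gene often methylated in cancer, had 4 of 45, with 145 on KO decitabine, 95.1 on WT decitabine, 65.1 on KO untreated and 15.6 on WT untreated. Its members' input was lower on KO decitabine (median log2 1.44) than on WT decitabine (2.28), KO untreated (1.86) and WT untreated (2.19). That order held in 3 of the 4, and the remaining Hic1 member had a log2 input of -0.07 on KO decitabine and -0.72 on WT decitabine. Plagl1, an imprinted zinc finger gene, had 4 of 30, 3 of them within 1000 bp of a start, and the Wnt antagonist Dkk3 had 4 of 28. The germline genes Piwil1 and Mov10l1 had 3 members each, of 26 and 22 eligible probes.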

How the data were processed

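Each of 4 arrays held MeDIP DNA (Cy3) and input DNA (Cy5) of 1 group, with both amplified over the whole genome before labelling, per the labels' protocols. The authors deposited linear intensities from Agilent Feature Extraction 10.5.1.1, background-subtracted, dye-normalized and with surrogates for dim signals, per the file headers. The deposited log10 ratio (Cy5 over Cy3) was used in an alternative. The deposited well-above-background flags are other values, 0 or 1. The headers set the flag at 13 times the background spread, and a probe with 2 spots counted as bright where either was. No dyes were swapped, so dye bias was not tested.

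From the processed intensities, log2 MeDIP minus log2 input was taken for each spot, averaged over a probe's spots and centred on the array median, with no loess or quantile step. Probe sequences were matched to mm9 and its GENCODE annotation, and genes are named as in the array's own column. Named were the 20 genes with the most members, the 10 largest bounds, the 5 longest runs, listed genes with at least 2 members (examples) and probes next to the limit. The members, the 15 lists and these rules were chosen with earlier results of these data known. The computations used Python 3.11.15, and limma 3.58.1 for the normexp and loess alternatives. The rules were tested on simulated data. No replicate error can be given, and the number of arrays limits precision.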

Additional observations from a re-analysis of the deposited data

Results flagged for a closer look

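In 4 of the 20 genes with the most members, the median decitabine difference of the centred log2 ratio had opposite signs in KO and WT cells: 1.67 in KO and -0.16 in WT at Slc38a1, 0.60 and -0.67 at Pcdhb17, 1.19 and -0.32 at Carhsp1, and 1.84 and -0.13 at Igfbpl1. The difference between KO and WT was not tested, with 1 array per group. The choice of the probes favoured the direction in KO cells. It also required them to be dim on WT decitabine, so the direction in WT cells is not independent of the choice either. On WT decitabine, 37.8% of all members reached 0.8 of the limit, against 5.06% on WT untreated. For all eligible probes, those bright on the array included, these shares were 19.07% and 6.15%. Over all members, the median WT difference was 0.57, and -0.08 with loess. Single members did not all follow the medians: in KO cells, 6 of 7 members were higher with decitabine at Slc38a1, 5 of 6 at Igfbpl1 and 6 of 6 at each of Pcdhb17 and Carhsp1. In WT cells, 3 of 7 members were higher with decitabine at Slc38a1, and 2 of 6 at each of Pcdhb17, Carhsp1 and Igfbpl1.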

How the results depend on the processing

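The settings with 10% bright probes, 1 threshold or slide blocks, block centring included, were chosen after seeing the data. No paired analysis was possible because each group has 1 array. The number of members (13930) was 23478 with the authors' weaker significance flag, 5055 at 1.5 times the lowest bright processed signal, 3636 with the brightest 10% per array, 6793 with 1 threshold for all arrays and 3259 with 10% within each block. The set from the weaker flag shared only 555 probes with the members (3.98% of members, 2.36% of that set). Its values below therefore describe mostly other probes. Under these 5 settings in that order, members per probe bright only on WT decitabine (1.82) were 1.20, 4.87, 0.92, 1.42 and 0.91. Under those 5 settings in the first order, members with another within 1000 bp (3806) were 7443, 696, 321, 1185 and 306. The percent with a CpG (55.1) was 50.9, 56.1, 64.3, 58.9 and 65.4, and the percent within 1000 bp of a start (36.6) was 41.6, 35.7, 45.3, 38.9 and 46.0. The median log2 input (0.71) was -0.19, which reversed its sign, then 0.85, 1.26, 1.10 and 1.20, and the median difference of KO decitabine minus WT decitabine (0.78) was 0.54, 0.98, 1.06, 0.85 and 1.02. Requiring all spots gave 52.8% with a CpG, 33.1% near a start and an input of 0.69, and each array's own share in blocks gave 35.3%, 0.68 and a difference of 0.70. Genes with a member (8778) were 4135 at 1.5 times, 3168 at 10%, 5247 with 1 threshold and 2868 at 10% in blocks, and list genes with a member (185) were 94, 74 and 70 at 1.5 times, 10% and 10% in blocks. The 2-fold calls (5308, 38.1% of members) were 2485, 1957, 2751 and 1652 under the last 4 settings, which hold fewer members, so that their shares were 49.2%, 53.8%, 40.5% and 50.7%. They were 3293 with normexp, 2816 with loess, 8551 at 1.5-fold and 2328 at 3-fold. The difference was 0.53 centred on bright probes, 0.71 from the deposited log ratio, 0.60 with normexp, 0.58 without centring, 0.35 with loess and 0.69 centred in blocks. These move all eligible probes by -0.26 (bright probes), -0.21 (no centring) and 0.13 (normexp). With loess, the members' median WT decitabine minus WT untreated was -0.08. The CpG excess of members (6.38 percentage points) was 8.13 over all probes and 0.80 at 45 to 55% G+C. Of the values for single genes, 34 moved and 46 did not under the planned settings, and 59 moved and 21 did not under those added. The causes were not tested.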

Other observations

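The 3 members with the highest MeDIP signal on KO decitabine, singled out after their values were seen, were bright in both channels there. The member at Dbndd2 had a subtracted MeDIP signal of 50746 on KO decitabine, and 41.6, -0.49 and 16.8 on WT decitabine, KO untreated and WT untreated. Its processed input signal was 206276 on KO decitabine, against 147, 219 and 264 on those arrays. The member at Lrwd1 had an input of 115799 on KO decitabine, against 760, 771 and 969. The member at 2810006K23Rik had an input of 41092 on KO decitabine, against 149, 309 and 228. All 3 carried a non-uniformity flag, as did 10 members in all, and their largest bound over the other arrays was 3.00-fold, at Lrwd1.

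Probes bright only on KO decitabine under equal shares of bright probes (10% per array) differed in sequence from those bright only on WT decitabine: they carried 1.57 CpGs on average, against 1.01, and 24.5% held at least 3 CpGs, against 12.3%. Taking 10% within each slide block, the means were 1.65 and 0.99. The excess of CpGs over the WT decitabine set thus remained where the excess in number did not. These 10% sets were not compared at equal G+C content, so the part of base composition in this excess was not tested. For the sets of the main rule, the shares at 45 to 55% G+C can be given. There the share bright only on WT decitabine was 3.81% at 0 CpGs and 2.19% at 3 CpGs. The member share was 3.45% and 3.30% at those counts, so these 2 sets differed in CpG count within this range too. For the members, the excess over eligible probes in the percent with a CpG was 6.38 points over all G+C contents and 0.80 at 45 to 55% G+C.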
